A study of Homo sapiens with 12 samples.

Results

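MeWo is a cell line from a human cutaneous melanoma. The cells described here held a short hairpin RNA against MITF that is switched on by doxycycline (Dox). The 6 MeWo libraries, of the 12 in the series, were chosen by their column names: 3 from cells given 1 µg/ml Dox and 3 control libraries from the same cells at 0 µg/ml, all after 8 days with medium changes every other day. All 12616 genes of the table other than the spike-in RNAs were described, and each gene was tested. Both groups carried the hairpin, so that they differed by Dox alone, and no libraries of MeWo cells without the hairpin were among those analysed. A change with Dox is therefore that of hairpin and drug together, which cannot be told apart. The labels place MeWo in EMEM and SkMel28 in RPMI medium, whereas the study's methods name RPMI for nearly all its human melanoma lines, so the medium of these MeWo cells is not settled here. Whether the hairpin line was a clone or a pool, and whether the replicates were separate cultures, is not given in the sources used here, and p-values then measure only the spread between these libraries. The second line of the series, SkMel28, had the same doses, time and number of libraries and is used for comparison only.

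MITF is a basic helix-loop-helix leucine zipper transcription factor of the melanocyte lineage. It binds E-box sequences near genes of pigment synthesis and melanosome transport, and in melanoma its level is known to go with differentiation and proliferation, whereas cells with little of it are often invasive and rich in matrix and neural crest genes. TFEB and TFE3, its relatives, bind similar sequences near genes of the lysosome.

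Expression was read from the 3′ ends of polyadenylated RNA and is given as reads normalised by the authors to an effective library size. MeWo libraries held 2645727 to 3714608 reads. A single read was worth 0.288 to 0.389 depending on the MeWo library. Changes are differences of log2(value + 1), Dox minus control, with the standard error (SE) from a limma fit over all 12 libraries, and genes with an adjusted p under 0.05 (Benjamini-Hochberg, two-sided) were called. This scale understates the change of genes with low values. Levels are compared between libraries, and genes were ranked by value only to choose which to name.

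Libraries of the Dox group agreed less with each other than those of the control group. The correlation across genes was 0.984 to 0.985 among the MeWo control libraries and 0.960 to 0.976 among the Dox libraries, lowest between Dox replicates 1 and 2. These coefficients describe the libraries, since genes are not independent replicates. Spike-in RNAs took 6.29 to 8.43% of the reads in control and 5.69 to 6.58% in Dox libraries, and scaling to them raised the median change of all genes from 0.00 to 0.22 on the log2 scale. Directions given below are those of the authors' scaling, and class medians after spike-in scaling are given relative to this shift.

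MITF itself, the target of the hairpin, fell. The gene lies at chr3:69739456-69968336, plus strand (GRCh38, GENCODE release 44). Its normalised value was 657, 663 and 708 in the control libraries and 451, 354 and 371 in the Dox libraries (log2 change -0.79, SE 0.11, adjusted p = 6.49e-05). All 3 Dox libraries lay below all 3 controls, and the mean was 42% lower. Dox replicate 1 kept the highest value of the Dox libraries. The change in SkMel28 was -0.49, and the difference between the lines, -0.31 (SE 0.15), did not pass the threshold (adjusted p = 0.225).

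The label was checked with cell type markers. All 8 melanocyte lineage markers were listed, and their summed value was 13080 to 13277 in control and 6706 to 8414 in Dox libraries. Of the markers of other cell types, 1 of 6 for keratinocytes, 0 of 5 for endothelial cells, 1 of 6 for leukocytes and 2 of 5 for fibroblasts were listed. KRT5, PECAM1, PTPRC and COL1A1 were not among the listed genes. KRT10, the listed keratinocyte marker, was at 131, 148 and 153 in control and 158, 145 and 160 in Dox libraries, without a call. Of the listed fibroblast markers DCN was at 0.576, 1.17 and 1.94 in control and 2.87, 1.52 and 1.35 in Dox libraries, without a call. LUM, the other, was at 40.9, 46.6 and 45.7 in control and fell, as given below. CD68, a lysosomal protein of macrophages, was the listed leukocyte marker, at 151, 134 and 132 in control and 57.5, 107 and 147 in Dox libraries, with overlap between the groups and no call. These values do not separate fewer cells of a type from less RNA per cell.

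The lineage markers did not move together. PMEL, the fibril protein of the melanosome, was at 7694, 7449 and 7208 in control and 3542, 3220.4 and 3022 in Dox libraries (log2 change -1.19, adjusted p = 4.9e-07). MLANA, a melanosomal membrane protein, fell from 1271, 1351 and 1358 to 451, 391 and 427 (log2 change -1.65, adjusted p = 5.33e-09). TYRP1, an enzyme of melanin synthesis, fell from 1917, 2123 and 2103 to 1065, 638 and 659 (log2 change -1.42, adjusted p = 1.24e-05). DCT, the enzyme that isomerises dopachrome in the same pathway, rose from 939.9, 933 and 976 to 1954, 1781 and 1637 (log2 change 0.91, adjusted p = 2.71e-05), with no overlap between the groups. S100B, a calcium-binding protein of melanocytes and glia, rose from 65.7, 63.7 and 59.3 to 251, 251 and 241 (log2 change 1.96, adjusted p = 1.91e-09).

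TYR and SOX10 were marked by a split among the Dox libraries. TYR, the first enzyme of melanin synthesis, was at 346, 398 and 375 in control and at 389, 167 and 194 in Dox libraries. SOX10, a neural crest transcription factor, was at 289, 296 and 293 in control and 312, 158 and 155 in Dox libraries. Dox replicate 1 lay within the controls for TYR and above them for SOX10, while replicates 2 and 3 lay far below them. Both passed the test by a small margin (log2 change -0.67, adjusted p = 0.0418 for TYR and log2 change -0.57, adjusted p = 0.0455 for SOX10). Without Dox replicate 2 the adjusted p was 0.202 and 0.191, and without Dox replicate 3 it was 0.169 and 0.214, and both calls were also lost without any 1 of the 3 controls, so neither is stable.

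Across all genes, 2107 of 12616 (16.7%) were called, 1082 higher (8.58%) and 1025 lower (8.12%). Of these, 443 rose and 341 fell by at least 2-fold. Scaling to the spike-ins changed this split to 2097 higher and 383 lower. Dox replicate 1, the library that stood apart, also set the counts: without it 2022 genes were higher and 1891 lower, while without Dox replicate 2 there were 744 and 730 and without Dox replicate 3 there were 671 and 630. Without control replicate 2 or 3, 1281 and 1320 genes were called in both directions.

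To see where these changes fell, 6204 genes were placed by their symbols into 41 functional classes within 6 groups, each gene counted once, and 6412 genes stayed unclassified. The shares called are given for each group. Among 276 listed genes for secreted proteins, 68 rose and 20 fell, which is 24.6% and 7.25%. Among 931 membrane genes 156 rose and 86 fell (16.8% and 9.24%). Among 2063 nuclear genes 151 rose and 108 fell (7.32% and 5.24%), fewer in both directions than the 8.58% and 8.12% of all genes. Among 1236 metabolic genes 94 rose and 131 fell (7.61% and 10.6%). Cytoplasmic genes gave 90 higher and 118 lower of 1058, noncoding genes 35 and 48 of 640, and unclassified genes 488 and 514. Counts depended on single libraries when each of the 6 MeWo libraries was left out in turn. Secreted genes ranged least (59 to 78 higher, 14 to 23 lower), and membrane genes gave 108 to 215 higher and 66 to 135 lower. Nuclear genes gave 70 to 316 higher and 49 to 255 lower, metabolic genes 59 to 189 and 72 to 236. Cytoplasmic genes gave 53 to 209 higher and 58 to 222 lower. Noncoding genes gave 16 to 60 and 31 to 73, and unclassified genes 300 to 955 and 305 to 947. Ranges of this kind stand in brackets after the counts of each class. In 36 of the 41 classes at least 1 of the 2 counts moved by over 1.5 times, in 30 without Dox replicate 1, 20 without Dox replicate 2, 26 without Dox replicate 3, and 23, 30 and 32 without control replicates 1, 2 and 3. The upper end came without Dox replicate 1, alone or tied, for 80 of the 82 counts. Of the 41 classes 21 had more rises than falls and 16 more falls than rises, and in 6 classes this balance turned when 1 library was left out. The 21 kept this balance after spike-in scaling, whereas all 16 classes with more falls then had more rises, so that every excess of falls below is one relative to the other genes under the authors' scaling.

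**Figure D1:**
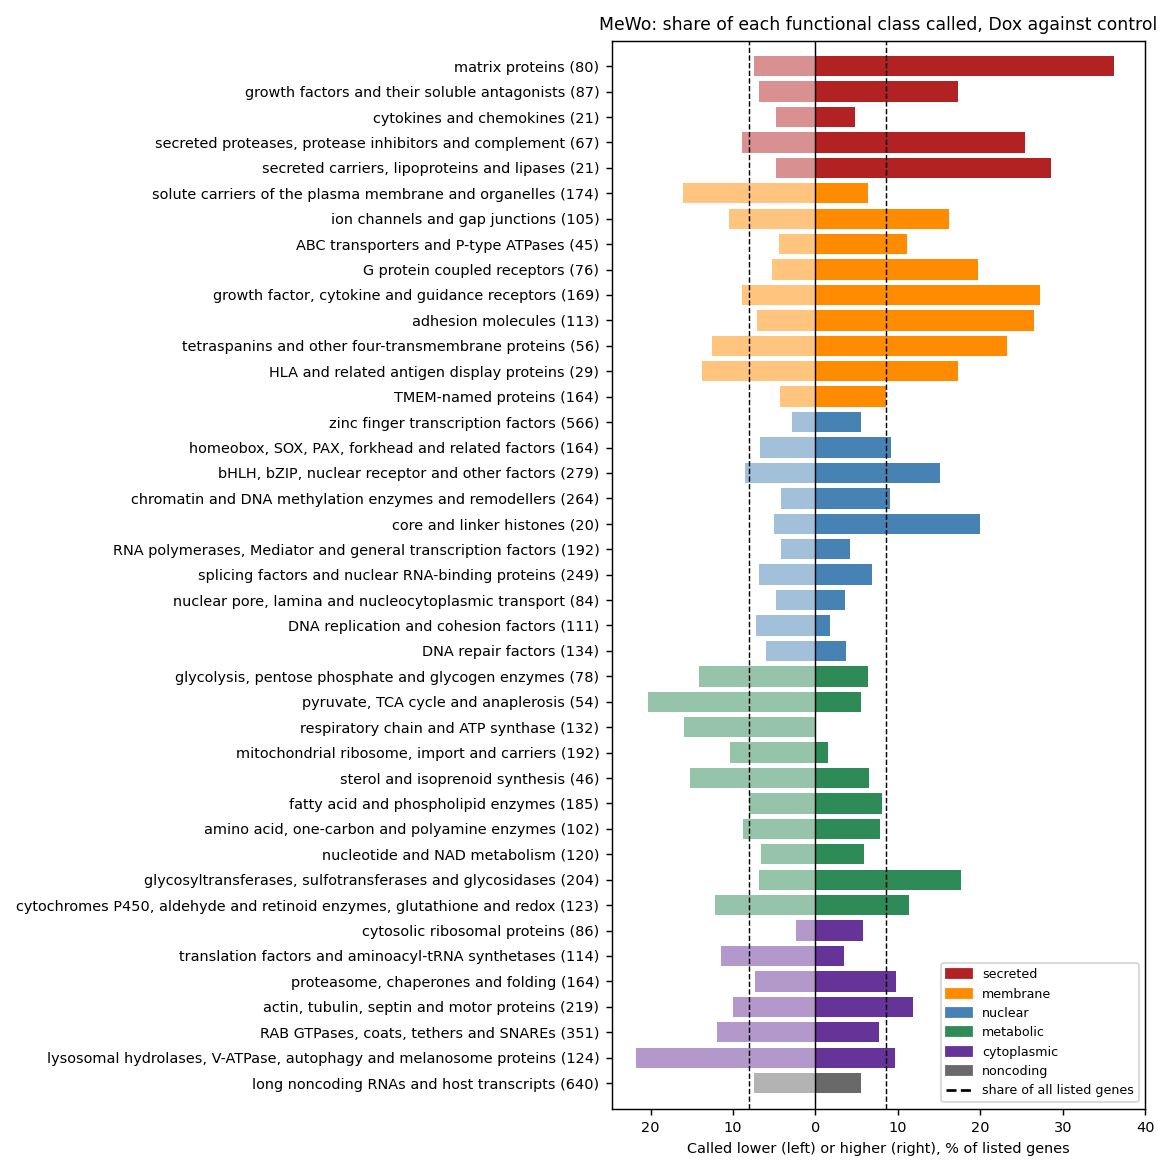
Share of the listed genes of each functional class that were called higher (bars to the right, full colour) or lower (bars to the left, pale) with Dox in MeWo, in percent. The number of listed genes stands in brackets and the dashed lines mark the shares over all genes, 8.58% higher and 8.12% lower. Matrix proteins reach 36.2% higher, while respiratory chain genes have 0 called higher and 15.9% called lower.

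Genes for secreted proteins rose more often than they fell, and their median was above the control mean in each Dox library. The median change of the 276 genes was 0.28 against 0.00 for all genes, and the medians of the single Dox libraries were 0.31, 0.40 and 0.26 above the control mean. Their summed value was 11473, 10866 and 10684 in control and 16161, 18949 and 18945 in Dox libraries, a 1.64-fold rise. After spike-in scaling the median lay 0.27 above that of all genes. Without Dox replicate 1, 78 secreted genes were called higher and 23 lower.

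Extracellular matrix genes, for the proteins of the scaffold around cells, had the highest share of rises of the secreted classes. Of 80 listed matrix genes 29 rose and 6 fell (25 to 29 higher, 4 to 6 lower), with a median change of 0.56. The medians of the Dox libraries were 0.55, 0.63 and 0.49. The summed value was 2321, 2360.3 and 2375 in control and 4837, 4921 and 5037 in Dox libraries, and the counts were the same without Dox replicate 1. MATN2, a filament-forming matrix protein, was at 4.61, 2.72 and 6.15 in control and 75, 50.4 and 53.2 in Dox libraries (log2 change 3.49, SE 0.28, adjusted p = 1.7e-07). THBS2, a matricellular glycoprotein that limits vessel growth, rose from 252, 245 and 245 to 1079, 757 and 989.7 (log2 change 1.91, SE 0.17, adjusted p = 7.52e-07). LUM, a small leucine-rich proteoglycan that binds collagen, went the other way, from 40.9, 46.6 and 45.7 to 16.3, 8.34 and 13.2 (log2 change -1.78, SE 0.23, adjusted p = 3.06e-05). In none of these genes did the groups overlap, which the rule for naming required. Over all 12616 genes, 1776 were higher and 1855 lower without overlap between the groups.

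Signals and their soluble antagonists also rose more often than they fell. Of 87 listed genes 15 rose and 6 fell (11 to 21 higher, 3 to 6 lower), and the median change was 0.26. SEMA3B, a secreted axon guidance factor, was at 16.7, 13.6 and 17.5 in control and 187, 507 and 461 in Dox libraries (log2 change 4.39, SE 0.31, adjusted p = 2.82e-08). Its value in Dox replicate 1 was below those of replicates 2 and 3 yet far above every control. GDF15, a stress-induced cytokine of the TGF-beta family, rose from 324, 330.2 and 384 to 644, 880.4 and 1012 (log2 change 1.27, SE 0.15, adjusted p = 1.19e-05). ANGPTL2, a secreted angiopoietin-like factor, fell from 310.1, 312 and 267 to 109, 113 and 124 (log2 change -1.35, SE 0.25, adjusted p = 0.00117). With a pseudocount of 0.1 its adjusted p was 0.246. Of 21 listed cytokines and chemokines 1 rose and 1 fell (1 to 2 higher, 1 to 2 lower). These were IL24, from 1.15, 1.17 and 0.324 to 5.75, 3.03 and 7.45, and CCL28, from 10.7, 14 and 13.9 to 5.75, 3.79 and 8.47, which are named because the counts are so low and were picked after their values were seen.

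Proteases, protease inhibitors and complement factors were called higher in 17 and lower in 6 of 67 genes (14 to 21 higher, 4 to 8 lower). SERPINA3, an acute-phase serine protease inhibitor, held at most 1 read in any control library and was at 37.3, 39 and 26.1 in Dox libraries, at least 29.3-fold higher against a floor of 3 reads per library (log2 change 4.98, SE 0.28, adjusted p = 5.33e-09). TIMP3, the matrix-bound inhibitor of metalloproteinases, rose from 149, 151 and 167 to 486, 428 and 519 (log2 change 1.61, SE 0.10, adjusted p = 9.47e-09). MMP2, a gelatinase, fell from 122, 112 and 103 to 62.9, 36.8 and 41.3 (log2 change -1.27, SE 0.27, adjusted p = 0.00329), and with a pseudocount of 0.1 its adjusted p was 0.188. TIMP3 and MMP2, an inhibitor and an enzyme of the same system, were named as the most abundant called gene of this class in each direction. Their opposite directions and the lack of overlap therefore follow from the rule for naming.

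Secreted carriers, lipoproteins and lipases transport vitamins, metals and lipids outside the cell. 6 of 21 genes rose and 1 fell (5 to 6 higher, 1 lower). TCN1, a vitamin B12 binding protein, was at 2.02, 2.33 and 3.89 in control and 186, 127 and 133 in Dox libraries (log2 change 5.33, SE 0.36, adjusted p = 2.44e-08). PNLIPRP3, a pancreatic lipase related protein, was at 35.4, 37.3 and 42.8 in control and 2.23, 1.14 and 1.02 in Dox libraries (log2 change -4.03, SE 0.28, adjusted p = 2.44e-08). Its control values were each more than 10 times any of the Dox values.

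**Figure D2:**
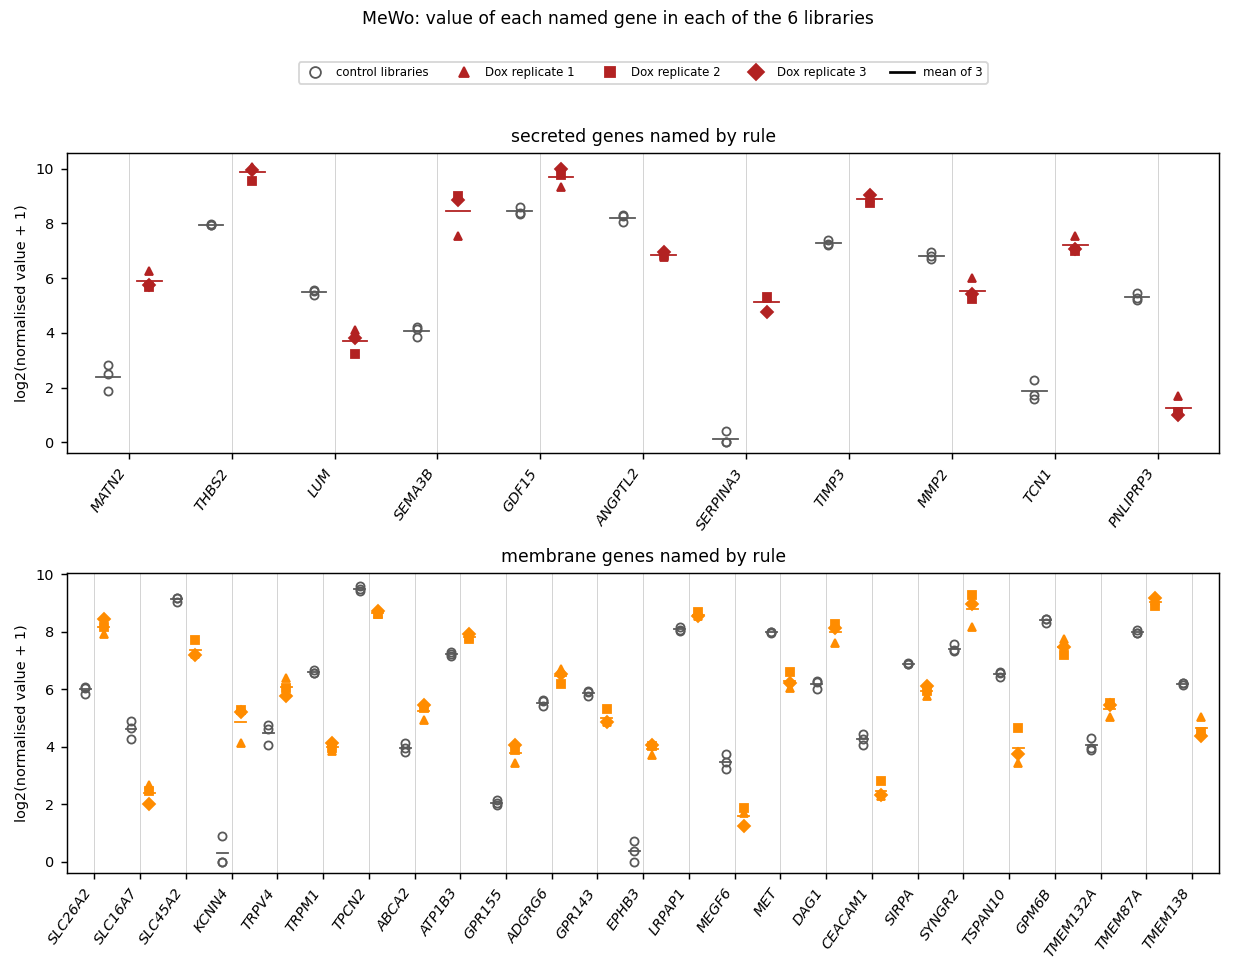
Values of the named genes of the secreted (top) and membrane (bottom) groups on the scale log2(normalised value + 1), 1 point per library and a short line at the mean of 3. Open circles are control libraries and filled symbols are Dox replicates 1 to 3. For all genes shown the 3 Dox points lie on the same side of the 3 control points, which the rule for naming required. SEMA3B and KCNN4 show Dox replicate 1 below replicates 2 and 3.

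Within the membrane group the direction depended on the class. Receptors and adhesion molecules rose more often than they fell, while solute carriers fell more often than they rose. The summed value of the whole group was similar in both (50751, 49542 and 48915 in control and 48109, 51532 and 53639 in Dox libraries), and without Dox replicate 1 215 genes were higher and 135 lower. Spike-in scaling gave 225 and 49.

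Of 169 receptors for growth factors, cytokines and guidance cues 46 rose and 15 fell (31 to 55 higher, 13 to 20 lower), with a median change of 0.26 and Dox library medians of 0.24, 0.27 and 0.27. EPHB3, a receptor for ephrin-B ligands, held at most 2 reads in any control library and was at 12.1, 15.2 and 15.6 in Dox libraries, at least 12.3-fold higher (log2 change 3.56, SE 0.28, adjusted p = 1.51e-07). LRPAP1, a chaperone for receptors of the LDL receptor family that was placed in this class by its symbol, rose from 263, 284 and 268 to 374, 414 and 374 (log2 change 0.51, SE 0.10, adjusted p = 0.002). MET, the receptor for hepatocyte growth factor, fell from 255, 249 and 255 to 64.8, 95.9 and 73.2 (log2 change -1.70, SE 0.15, adjusted p = 3.59e-07). MEGF6, a protein with epidermal growth factor repeats, fell from 8.35, 12.4 and 10.0 to 2.23, 2.65 and 1.35 (log2 change -1.88, SE 0.29, adjusted p = 0.000188). The spread of MET among its controls was small beside its change.

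Adhesion molecules showed the same direction, with 30 higher and 8 lower of 113 (24 to 37 higher, 5 to 10 lower) and a median of 0.29. DAG1, which links laminin outside the cell to dystrophin inside it, rose from 77.2, 75 and 63.2 to 193, 308 and 279 (log2 change 1.82, SE 0.15, adjusted p = 2.91e-07). CEACAM1, an immunoglobulin-like adhesion molecule, fell from 15.8, 20.6 and 18.5 to 3.83, 6.06 and 4.06 (log2 change -1.79, SE 0.19, adjusted p = 3.67e-06). SIRPA, the receptor for CD47, fell from 116, 118 and 116 to 53.3, 59.9 and 67.7 (log2 change -0.95, SE 0.11, adjusted p = 8.62e-06).

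Solute carriers were the membrane class with more falls than rises, 28 against 11 of 174 (7 to 20 higher, 20 to 41 lower). The median change was -0.06, with Dox library medians of -0.06, -0.07 and -0.08. After spike-in scaling the counts were 16 lower and 20 higher, and the median was -0.09 relative to all genes. SLC45A2, a transporter of the melanosome, fell from 577, 577 and 529 to 148, 211 and 145 (log2 change -1.76, SE 0.13, adjusted p = 8.58e-08). SLC16A7, a monocarboxylate transporter, fell from 18.4, 24.5 and 28.8 to 5.43, 4.55 and 3.05 (log2 change -2.23, SE 0.34, adjusted p = 0.00019). SLC26A2, a sulfate transporter needed for proteoglycan sulfation, rose from 56.7, 65.7 and 66.4 to 243, 284 and 349 (log2 change 2.18, SE 0.13, adjusted p = 5.33e-09). All 3 SLC26A2 values with Dox exceeded every control value more than 3-fold.

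Among 105 ion channel genes 17 rose and 11 fell (10 to 24 higher, 9 to 16 lower). KCNN4, a calcium-activated potassium channel, held at most 3 reads in any control library and was at 16.6, 37.9 and 35.9 with Dox, at least 25.9-fold higher (log2 change 4.58, SE 0.35, adjusted p = 1.19e-07). TRPV4, a calcium-permeable channel, rose from 15.8, 23.3 and 25.9 to 83.9, 65.6 and 53.5 (log2 change 1.60, SE 0.21, adjusted p = 4.06e-05). TRPM1, a channel of melanocytes that carries a microRNA in an intron, fell from 94.2, 94.8 and 101 to 13.4, 14.4 and 16.6 (log2 change -2.63, SE 0.16, adjusted p = 5.65e-09). TPCN2, a channel of endolysosomes and melanosomes, fell from 714, 764 and 683 to 394, 389 and 423 (log2 change -0.84, SE 0.12, adjusted p = 0.000109). ABC transporters and P-type ATPases gave 5 higher and 2 lower of 45 (3 to 8 higher, 1 to 9 lower). ABCA2, a lipid transporter of endolysosomes, rose from 16.7, 14.4 and 13 to 29.7, 39.4 and 43 (log2 change 1.28, adjusted p = 0.000629), and ATP1B3, a subunit of the sodium pump, from 143, 150.4 and 156 to 226, 216 and 240.5 (log2 change 0.60, adjusted p = 0.000567).

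G protein coupled receptors rose in 15 and fell in 4 of 76 genes (8 to 20 higher, 4 to 6 lower). GPR155 was at 3.46, 3.11 and 2.91 in control and 9.89, 13.6 and 15.6 in Dox libraries (log2 change 1.74, SE 0.19, adjusted p = 5.59e-06). ADGRG6, an adhesion receptor needed for myelination by Schwann cells, rose from 46.9, 41.6 and 47.9 to 103, 70.9 and 91.1 (log2 change 0.93, SE 0.18, adjusted p = 0.0014). GPR143, the receptor of the melanosome membrane that is mutated in ocular albinism, fell from 53.8, 60.2 and 58.3 to 28.1, 39 and 27.8 (log2 change -0.86, SE 0.14, adjusted p = 0.000268). Tetraspanins and related proteins gave 13 higher and 7 lower of 56 (11 to 16 higher, 5 to 10 lower). SYNGR2, a synaptogyrin of vesicles, rose from 188, 159 and 165 to 289.5, 614 and 503 (log2 change 1.39, adjusted p = 0.000132). TSPAN10, a tetraspanin expressed in pigment cells, fell from 95.6, 93.2 and 84.2 to 9.89, 24.3 and 12.5 (log2 change -2.57, adjusted p = 9.53e-07). GPM6B, a proteolipid of the myelin protein PLP family, fell from 317, 349 and 344 to 213, 147 and 177 (log2 change -0.92, adjusted p = 4.99e-05).

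The class of HLA and related antigen display proteins held 29 listed genes, of which 5 rose and 4 fell (3 to 7 higher, 2 to 6 lower). None met the rule for naming. Genes named after protein family TMEM gave 14 higher and 7 lower of 164 (7 to 28 higher, 2 to 19 lower), near the shares of all genes on the higher side. TMEM87A rose from 246, 266 and 249 to 534, 474 and 574 (log2 change 1.05, adjusted p = 3.87e-06) and TMEM132A from 19, 14 and 14.6 to 31.9, 44.7 and 42.3 (log2 change 1.27, adjusted p = 0.000939). TMEM138, a protein of cilia, fell from 73.7, 70.7 and 73.2 to 31.9, 21.6 and 20.0 (log2 change -1.56, adjusted p = 8.89e-06). It overlaps the oppositely oriented gene CYB561A3 described below, and the strand used for counting is not given in the sources used here, so that reads of the pair may not be told apart.

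E-box sequences, to which MITF and its relatives bind, were searched in the 250 bases before a RefSeq start of each gene (build GRCh38.p14), which the RefSeq table held for 10188 of the 12616 genes. The letters CACGTG were found in 99 of 812 promoters of genes called lower (12.2%), 65 of 873 of genes called higher (7.45%) and 9.17% of genes not called. The letters CATGTG on either strand were found in 65 promoters of genes called lower (8%), 46 of genes called higher (5.27%) and 5.37% of genes not called. Over all 35116 promoters of the table the shares were 6.34% for CACGTG and 9.42% for CATGTG. The longer TCACGTGA, which contains CACGTG, was in 22 of the promoters called lower (2.71%) and 8 of those called higher (0.916%), against 1.81% of genes not called and 0.854% of all promoters of the table. These shares are descriptions of letters in a window, were not tested, and do not mark binding.

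The upstream sequences of 3 named membrane genes that fell and 1 that rose are shown as examples that hold an E-box. CEACAM1, which fell, and KCNN4, which rose, also hold an E-box, 41 and 185 bases before the start, and are not shown. In the sequences shown the E-box is in capitals. It reads CACATG, the reverse complement of CATGTG, in the first 3 and CACGTG in the last. The sequences are printed in the direction of transcription, and the last base lies next to the start. The TRPM1 stretch is chr15:31161161-31161410 on the minus strand, GPR143 at chrX:9765848-9766097 on the minus strand, TSPAN10 at chr17:81642055-81642304 on the plus strand and SLC26A2 at chr5:149960508-149960757 on the plus strand.
TRPM1: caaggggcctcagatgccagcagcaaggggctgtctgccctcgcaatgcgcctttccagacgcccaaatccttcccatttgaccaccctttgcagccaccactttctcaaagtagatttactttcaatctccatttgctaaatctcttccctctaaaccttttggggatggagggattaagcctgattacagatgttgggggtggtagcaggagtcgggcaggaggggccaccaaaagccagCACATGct
GPR143: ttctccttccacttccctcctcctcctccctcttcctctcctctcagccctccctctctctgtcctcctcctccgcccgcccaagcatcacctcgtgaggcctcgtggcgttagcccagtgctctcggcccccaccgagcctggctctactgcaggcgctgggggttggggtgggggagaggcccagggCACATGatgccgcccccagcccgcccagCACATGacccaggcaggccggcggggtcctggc
TSPAN10: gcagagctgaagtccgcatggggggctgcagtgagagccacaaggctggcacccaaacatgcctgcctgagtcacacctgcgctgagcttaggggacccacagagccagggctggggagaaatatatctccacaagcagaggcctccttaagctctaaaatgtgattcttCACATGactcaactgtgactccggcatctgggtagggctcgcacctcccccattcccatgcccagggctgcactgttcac
SLC26A2: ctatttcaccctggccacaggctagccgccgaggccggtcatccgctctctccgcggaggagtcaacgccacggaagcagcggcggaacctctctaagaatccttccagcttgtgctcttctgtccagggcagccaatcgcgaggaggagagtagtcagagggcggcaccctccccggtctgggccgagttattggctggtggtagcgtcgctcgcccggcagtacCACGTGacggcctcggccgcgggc
The first letter of the E-box lies 8 bases before the start in TRPM1, 61 and 33 bases in GPR143, 80 bases in TSPAN10 and 24 bases in SLC26A2. Among the named membrane genes an E-box is thus found upstream of some that fell and of some that rose. Over the whole membrane group CATGTG was in 10 of 67 promoters called lower (14.9%) and 7 of 121 called higher (5.79%). CACGTG was in 8 (11.9%) and 11 (9.09%) of these promoters. The shares of this group were not tested either.

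Nuclear genes had the smallest share of calls of the 4 main groups. The median change was 0.00, and 38 rose and 19 fell by at least 2-fold of 2063 listed. The counts depended on Dox replicate 1, without which 316 were higher and 255 lower, and on scaling, since the spike-ins gave 324 and 26.

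Transcription factors of the bHLH, bZIP, nuclear receptor and related families were called more often than nuclear genes as a whole, with 42 higher and 24 lower of 279 (21 to 62 higher, 14 to 44 lower). MYRF, a factor that drives myelin genes in oligodendrocytes, was at 0.864, 0.777 and 1.30 in control and 31.6, 27.3 and 22.7 in Dox libraries (log2 change 3.83, SE 0.25, adjusted p = 1.42e-08). TSC22D1, a leucine zipper protein induced by TGF-beta, rose from 80.3, 73.8 and 82.6 to 239, 148 and 182 (log2 change 1.23, SE 0.18, adjusted p = 0.00015). BHLHE41, a repressor of the circadian clock, fell from 115, 115 and 132 to 46, 51.2 and 48.4 (log2 change -1.30, SE 0.11, adjusted p = 4.05e-07). MITF belongs to this class.

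Homeobox, SOX, PAX and forkhead factors gave 15 higher and 11 lower of 164 (11 to 23 higher, 7 to 23 lower), close to the shares of all genes. SOX2, a factor of stem and neural progenitor cells, was at 2.02, 2.72 and 1.62 in control and 12.1, 19 and 16.9 in Dox libraries (log2 change 2.44, SE 0.28, adjusted p = 9.18e-06). It lies within the listed transcript SOX2-OT on the same strand, and reads of the pair may not be told apart. SOX4 rose from 184, 165 and 172 to 278, 494 and 423 (log2 change 1.15, SE 0.16, adjusted p = 5.55e-05). IRX3, an Iroquois homeobox factor, fell from 229, 245 and 225 to 109, 86.8 and 109 (log2 change -1.20, SE 0.13, adjusted p = 6.49e-06). TFAP2A, a factor that acts with MITF on melanocyte genes, fell from 673, 664 and 709.9 to 485, 332 and 381 (log2 change -0.79, SE 0.12, adjusted p = 0.000208).

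Zinc finger factors, the nuclear class with the most listed genes, gave 31 higher and 16 lower of 566 (5.48% and 2.83%, with ranges of 14 to 65 higher, 6 to 39 lower). SALL1 rose from 5.47, 5.44 and 3.56 to 14.4, 14.8 and 18 (log2 change 1.53, adjusted p = 0.001) and ZNF428 from 220.3, 238 and 273 to 318, 381 and 388 (log2 change 0.57, adjusted p = 0.00548). PRDM7, a methyltransferase with zinc fingers and a close copy of PRDM9 with which it may share reads, fell from 24.2, 21 and 20.1 to 2.55, 1.14 and 1.02 (log2 change -3.19, adjusted p = 2.73e-08).

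Chromatin enzymes and remodellers gave 24 higher and 11 lower of 264 (6 to 64 higher, 3 to 30 lower). SETD7, a lysine methyltransferase, rose from 36.3, 30.7 and 47.3 to 74.7, 70.1 and 76.2 (log2 change 0.95, adjusted p = 0.000179). KAT2A, the GCN5 acetyltransferase, rose from 97.6, 81.6 and 80.0 to 124, 172 and 139.9 (log2 change 0.74, adjusted p = 0.00133). SETDB2, a lysine methyltransferase linked to gene silencing, fell from 62.2, 59.8 and 66.7 to 29.7, 31.1 and 34.2 (log2 change -0.97, adjusted p = 0.004). Of 20 listed histone genes 4 rose and 1 fell (2 to 4 higher, 1 to 4 lower). HIST2H2BE, an H2B gene that has polyadenylated transcripts and near-identical copies, was at 4.03, 3.5 and 5.51 in control and 14, 13.3 and 16.9 in Dox libraries (log2 change 1.57, adjusted p = 0.000273).

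RNA polymerase, Mediator and general factors gave 8 higher and 8 lower of 192 (2 to 24 higher, 2 to 25 lower). Splicing factors and nuclear RNA-binding proteins gave 17 and 17 of 249 (6 to 44 higher, 4 to 45 lower), and nuclear pore and lamina genes 3 and 4 of 84 (0 to 9 higher, 0 to 10 lower). ESRP1, an epithelial splicing regulator, fell from 97, 100.2 and 94.9 to 52.7, 41.3 and 48.1 (log2 change -1.03, adjusted p = 7.39e-05), and PCBP4, a poly(C)-binding protein, rose from 147, 160.5 and 146 to 281, 339 and 343 (log2 change 1.08, adjusted p = 3.74e-06). AFF3, related to subunits of the super elongation complex, fell from 16.1, 13.2 and 14.3 to 3.19, 7.20 and 4.06 (log2 change -1.47, adjusted p = 0.00187).

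DNA replication and cohesion genes gave 2 higher and 8 lower of 111 (0 to 10 higher, 1 to 14 lower), with Dox library medians of -0.05, 0.03 and -0.10. The signs differed between the Dox libraries. None met the rule for naming. DNA repair genes gave 5 and 8 of 134 (1 to 11 higher, 6 to 21 lower), and RMI2, a subunit of the complex that dissolves Holliday junctions, fell from 36, 33.4 and 41.8 to 20.1, 18.6 and 17.6 (log2 change -0.94, adjusted p = 0.000251). In SkMel28, 1 of the replication genes rose and 16 fell, where 5.88% of all genes were called higher and 5.04% lower.

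**Figure D3:**
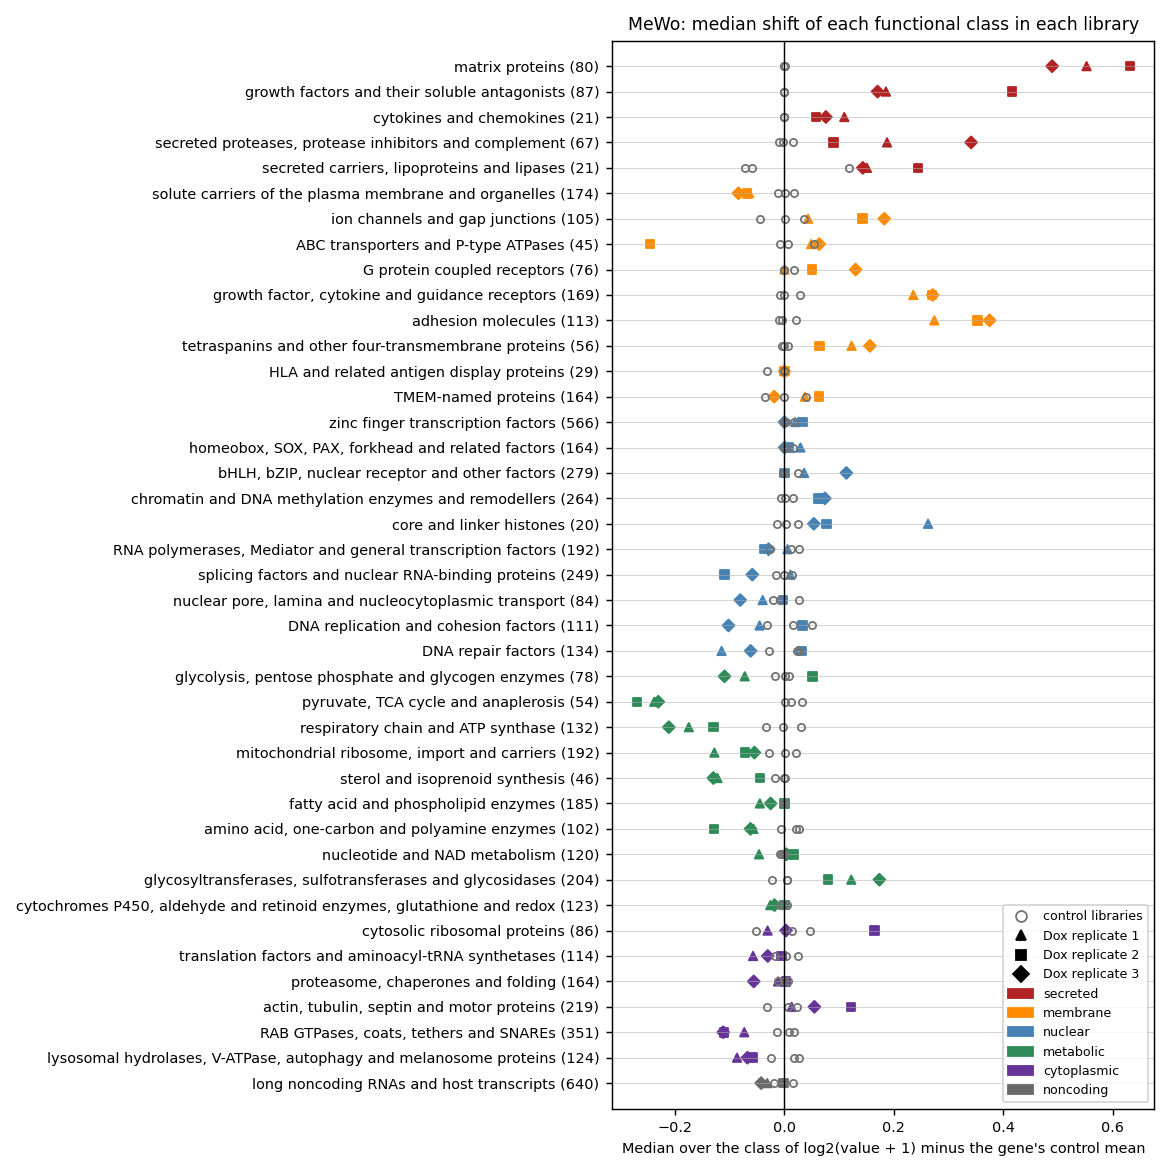
Median over the genes of each class of log2(value + 1) minus the mean of the gene's 3 controls, in each of the 6 MeWo libraries. Open circles are controls and filled symbols are Dox replicates 1 to 3, coloured by group. Matrix proteins lie at 0.55, 0.63 and 0.49 and TCA cycle genes at -0.24, -0.27 and -0.23, with the control medians near 0. ABC transporters and replication factors show Dox libraries on both sides of 0.

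Metabolic genes fell more often than they rose. The median change was -0.07, with Dox library medians of -0.08, -0.03 and -0.03, and 28 rose and 26 fell by at least 2-fold. This direction rests on the scaling: scaled to the spike-ins, 196 were called higher and 34 lower, and the median was -0.05 relative to all genes. Without Dox replicate 1 the counts were 189 higher and 236 lower.

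Mitochondrial energy genes had medians below the control mean in all 3 Dox libraries. Of 132 nuclear genes of the respiratory chain, its assembly and ATP synthase 0 rose and 21 fell in the limma fit (0 to 9 higher, 7 to 36 lower), with Dox library medians of -0.17, -0.13 and -0.21. At an unadjusted p under 0.05, 4 of these genes were higher, and edgeR and DESeq2 each called 1 higher. The summed value was 24584, 24226 and 23478 in control and 20687, 21994 and 20935 in Dox libraries, without overlap. After spike-in scaling 7 were higher and 3 lower, and the median was -0.15 relative to all genes. UQCRFS1, the Rieske iron-sulfur protein of complex III, fell from 124, 127 and 124 to 76.3, 69 and 69.1 (log2 change -0.80, SE 0.11, adjusted p = 8.47e-05). Of 54 genes of pyruvate oxidation, the TCA cycle and its feeding reactions 3 rose and 11 fell (2 to 5 higher, 7 to 15 lower), with a median of -0.24, and spike-in scaling left 4 higher, 3 lower and a median -0.22 relative to all genes. IDH1, the cytosolic isocitrate dehydrogenase, fell from 82.4, 98.3 and 93.3 to 60.3, 40.9 and 37.6 (log2 change -0.99, SE 0.15, adjusted p = 0.000185). ACSS1, the mitochondrial acetyl-CoA synthetase, rose from 81.5, 68.4 and 69.3 to 105, 113 and 109 (log2 change 0.58, SE 0.13, adjusted p = 0.0041).

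Genes of mitochondrial ribosomes, import and carriers gave 3 higher and 20 lower of 192 (0 to 22 higher, 10 to 41 lower), and spike-in scaling gave 14 higher and 2 lower. CHCHD6, a subunit of the complex that shapes cristae, fell from 175, 162 and 148 to 60.0, 70.5 and 65.7 (log2 change -1.29, adjusted p = 2.2e-05). Glycolysis, pentose phosphate and glycogen genes gave 5 higher and 11 lower of 78 (1 to 13 higher, 5 to 19 lower), with medians of mixed sign in the Dox libraries (-0.07, 0.05 and -0.11). PFKFB4, which sets the level of the glycolytic activator fructose bisphosphate, rose from 47.8, 55.6 and 43.1 to 93.8, 105 and 99.2 (log2 change 1.01, adjusted p = 0.00161). AKR1B1, aldose reductase, fell from 80.1, 80.4 and 80.6 to 40.9, 40.6 and 31.8 (log2 change -1.08, adjusted p = 3.12e-05).

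Sterol and isoprenoid genes gave 3 higher and 7 lower of 46 (1 to 3 higher, 4 to 10 lower), and fatty acid and phospholipid genes 15 and 15 of 185 (9 to 31 higher, 11 to 29 lower). SCD, the stearoyl-CoA desaturase and a known MITF target, fell from 394, 383 and 419 to 172, 207 and 218 (log2 change -1.0, SE 0.11, adjusted p = 3.67e-06). FADS1, another desaturase, rose from 26.2, 28 and 25.3 to 42.5, 48.1 and 46.4 (log2 change 0.76, SE 0.14, adjusted p = 0.000827). PTGES, a prostaglandin E synthase, rose from 5.47, 1.17 and 3.24 to 18.5, 16.7 and 19 (log2 change 2.29, SE 0.36, adjusted p = 0.00027). OSBPL5, a lipid transfer protein, rose from 70.5, 61.4 and 70.0 to 117, 174 and 151 (log2 change 1.1, adjusted p = 0.000262), and SOAT1, which esterifies cholesterol, fell from 55.6, 56.3 and 64.8 to 28.4, 23.9 and 29.8 (log2 change -1.08, adjusted p = 4.31e-05).

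Amino acid, one-carbon and polyamine genes gave 8 higher and 9 lower of 102 (3 to 13 higher, 5 to 19 lower). SAT1, which acetylates spermidine and spermine for export, rose from 592, 581 and 580.1 to 875, 760.3 and 877 (log2 change 0.52, adjusted p = 0.00173). SMS, spermine synthase, fell from 712, 655 and 725 to 415, 332 and 356 (log2 change -0.93, adjusted p = 1.6e-05). CKB, the brain creatine kinase, fell from 79.2, 75.8 and 68 to 20.4, 21.6 and 19 (log2 change -1.82, adjusted p = 2.36e-06). Nucleotide and NAD genes gave 7 and 8 of 120 (3 to 16 higher, 4 to 18 lower). NMRK2, a nicotinamide riboside kinase, was at 14.7, 14.8 and 10.4 in control and held at most 2 reads in any Dox library, at least 11.7-fold lower (log2 change -3.41, adjusted p = 2.46e-07).

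The enzymes that build and trim sugar chains, a class that also holds the collagen hydroxylases, rose more often than they fell. Of 204 listed genes 36 rose and 14 fell (26 to 55 higher, 7 to 26 lower), with a median change of 0.13 and Dox library medians of 0.12, 0.08 and 0.17. Their summed value was 8980.3, 8580.2 and 8652 in control and 9634, 10943 and 11053 in Dox libraries. EXTL1, a heparan sulfate glycosyltransferase, rose from 33.1, 29.9 and 29.1 to 76.3, 139 and 127 (log2 change 1.82, SE 0.18, adjusted p = 1.49e-06). PIGT, a subunit of the transamidase that attaches GPI anchors, rose from 221, 181 and 183 to 337, 534 and 487 (log2 change 1.19, SE 0.15, adjusted p = 3.12e-05). HAS2, a hyaluronan synthase, fell from 18.4, 19 and 20.4 to 1.92, 2.65 and 0.677 (log2 change -2.96, SE 0.29, adjusted p = 1.57e-06). GCNT2, which branches the blood group I chains, fell from 41.5, 48.2 and 44 to 29, 19.7 and 21.3 (log2 change -0.92, SE 0.17, adjusted p = 0.000959).

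Cytochromes P450, retinoid, glutathione and redox genes gave 14 higher and 15 lower of 123 (9 to 22 higher, 9 to 23 lower). CYP1B1, a P450 that oxidises estrogens and retinoids, was at 12.1, 7.77 and 13 in control and 341, 254 and 274 in Dox libraries (log2 change 4.62, SE 0.28, adjusted p = 6.76e-09). TXNIP, the inhibitor of thioredoxin, rose from 118, 141 and 141 to 229, 198 and 248 (log2 change 0.75, SE 0.12, adjusted p = 0.000275). GSTO1, a glutathione transferase, fell from 995, 955 and 921 to 309, 472 and 400.3 (log2 change -1.30, SE 0.13, adjusted p = 1.65e-06). CYB561A3, a lysosomal ferrireductase, fell from 199, 177 and 183 to 45, 50.4 and 43 (log2 change -1.99, SE 0.13, adjusted p = 1.1e-08), as did the TMEM138 gene that overlaps it.

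**Figure D4:**
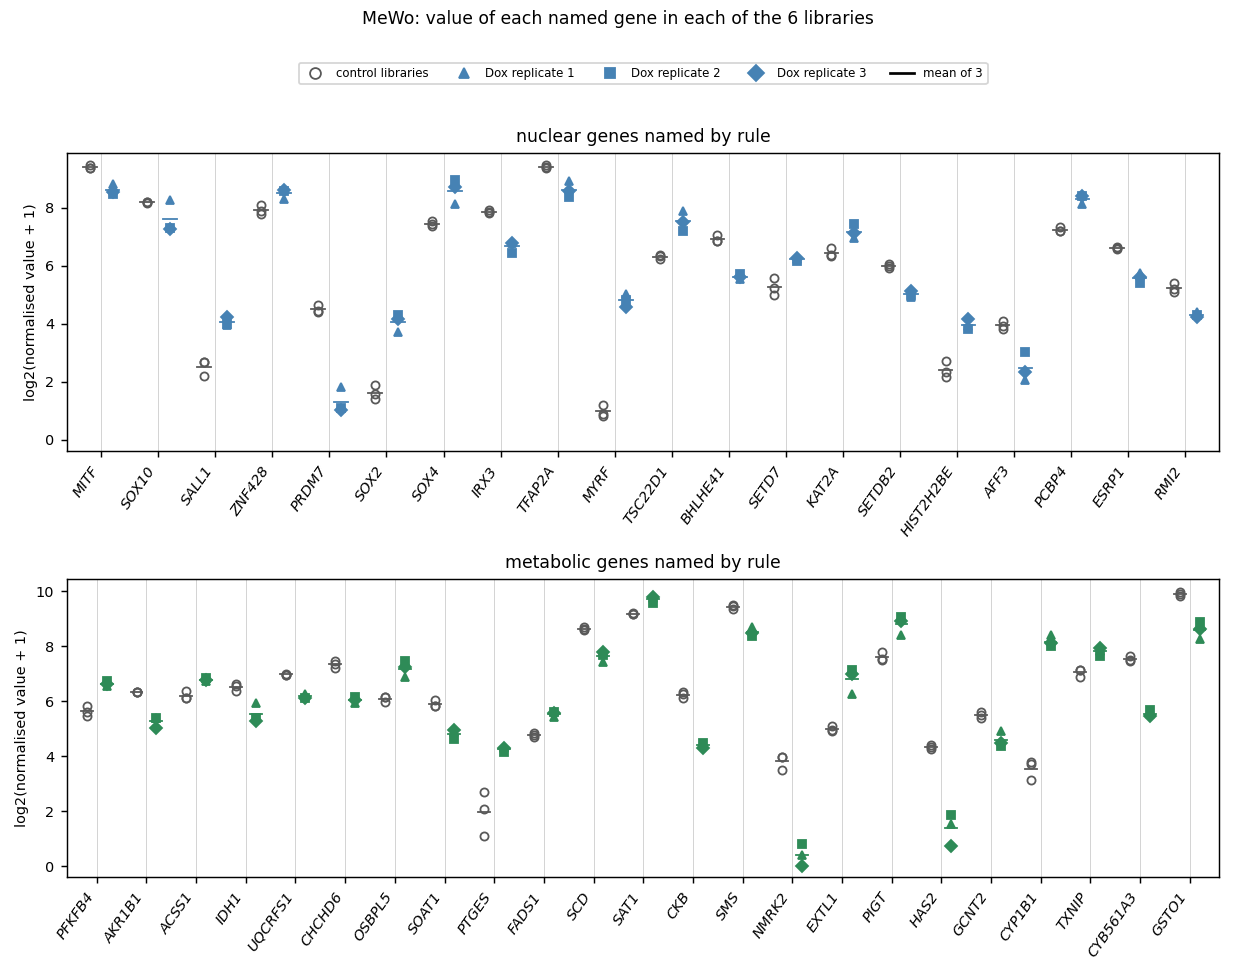
Values of the named genes of the nuclear (top) and metabolic (bottom) groups on the scale log2(normalised value + 1), 1 point per library and a short line at the mean of 3. Open circles are control libraries and filled symbols Dox replicates 1 to 3. In all genes shown except SOX10 the groups do not overlap, which the rule for naming required. SOX10 was named as a lineage marker, and its Dox replicate 1 (312) lies above the controls.

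Lysosome and melanosome genes had the highest share of falls among the cytoplasmic classes. Of 124 listed genes 27 fell and 12 rose (7 to 25 higher, 19 to 32 lower), and the summed value went from 33203, 32399.5 and 31699 to 26744, 27599 and 26369.9. PMEL, TYRP1 and MLANA together went from 10883, 10923 and 10669 to 5057, 4249 and 4108, and the sum of the other genes was 22320.2, 21477 and 21030.1 in control and 21687, 23349.7 and 22262 in Dox libraries, with overlap. The median change over the class was -0.05. CTSK, a cysteine cathepsin known as a MITF target in bone, fell from 269, 274 and 290.2 to 33.5, 14.4 and 14.2 (log2 change -3.79, SE 0.23, adjusted p = 6.11e-09). CTSC, a cathepsin that activates serine proteases, rose from 23, 17.9 and 23.3 to 53.6, 56.9 and 58.6 (log2 change 1.36, SE 0.14, adjusted p = 3.07e-06). Vesicle transport genes gave 42 lower and 27 higher of 351 (10 to 53 higher, 18 to 79 lower), with Dox library medians of -0.07, -0.11 and -0.11. RAB27A, which tethers melanosomes to actin, fell from 167, 161 and 172 to 71.2, 63.7 and 46.4 (log2 change -1.47, adjusted p = 9.53e-07). HPS4, a subunit of the exchange factor for the melanosome RABs, fell from 232, 254 and 220.2 to 135, 111 and 119 (log2 change -0.95, adjusted p = 1.24e-05). SNX24 rose from 14.4, 18.3 and 11.3 to 41.2, 29.6 and 41.7 (log2 change 1.30, adjusted p = 0.00113), and RAB7B from 7.77, 3.89 and 3.24 to 13.1, 19.7 and 23 (log2 change 1.76, adjusted p = 0.00156), whose adjusted p was 0.0561 with a pseudocount of 0.1.

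Ribosomal protein genes gave 5 higher and 2 lower of 86 (0 to 28 higher, 0 to 13 lower), without a named gene. Translation factors and tRNA synthetases gave 4 higher and 13 lower of 114 (3 to 18 higher, 4 to 22 lower). WARS, the cytosolic tryptophan synthetase, rose from 86.1, 81.2 and 85.5 to 182, 192 and 137 (log2 change 0.99, adjusted p = 9.24e-05), and NARS2, the mitochondrial asparagine synthetase, fell from 54.1, 65.3 and 70.0 to 31.9, 17.8 and 28.8 (log2 change -1.27, adjusted p = 0.00118). Proteasome, chaperone and folding genes gave 16 higher and 12 lower of 164 (11 to 34 higher, 6 to 34 lower). HSPA5, the main chaperone of the endoplasmic reticulum, rose from 669, 665 and 700.2 to 1087, 1211 and 1221 (log2 change 0.79, adjusted p = 1.65e-05). FKBP10, a collagen chaperone of the same compartment, rose from 17.3, 24.1 and 23.6 to 38.9, 84.1 and 78.6 (log2 change 1.53, adjusted p = 0.000111). HSPB1, a small heat shock protein of the cytosol, fell from 780.1, 775 and 749 to 487, 433 and 388 (log2 change -0.82, adjusted p = 0.00029).

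Cytoskeletal genes gave 26 higher and 22 lower of 219 (18 to 51 higher, 11 to 42 lower). TUBB2B, a neuronal beta-tubulin that may share reads with TUBB2A, was at 9.21, 6.60 and 5.18 in control and 44, 95.9 and 88.1 in Dox libraries (log2 change 3.22, adjusted p = 1.07e-06). CAPG, which caps actin filaments, fell from 413, 392 and 385 to 90.7, 147 and 99.9 (log2 change -1.84, adjusted p = 7.88e-07). TMSB10, a thymosin that binds actin monomers, rose from 837, 835 and 812 to 1128, 1149 and 1114 (log2 change 0.45, adjusted p = 0.00234). Of 640 noncoding transcripts 35 rose and 48 fell (16 to 60 higher, 31 to 73 lower). MALAT1, a nuclear RNA of speckles, rose from 2288, 2232 and 1972 to 3126, 3989 and 3867 (log2 change 0.75, adjusted p = 0.000604). LOC100288152 rose from 6.33, 8.16 and 9.39 to 39.3, 30.7 and 33.9 (log2 change 2.0, adjusted p = 1.19e-05). LINC00520 fell from 222, 221 and 214 to 46.9, 41.7 and 24.4 (log2 change -2.56, adjusted p = 2.26e-08).

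Since strand is not stated for the counting, reads of some named genes cannot be told apart from those of overlapping listed genes. On opposite strands these pairs include PMEL with CDK2, SOX10 with POLR2F, MYRF with TMEM258, CYP1B1 with RMDN2, TIMP3 with SYN3, FADS1 with FADS2, TFAP2A with TFAP2A-AS1 and HAS2 with HAS2-AS1. On the same strand RAB27A overlaps PIGBOS1, PFKFB4 overlaps UCN2 and PCBP4 overlaps ABHD14B.

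The response was compared with that of SkMel28, which has its own control libraries. The changes differed between the lines for 894 of 12616 genes (7.09%). Secreted genes had 30 more positive and 26 more negative changes in MeWo (20.3% of the group), membrane genes 45 and 63 (11.6%), nuclear genes 56 and 40 (4.65%) and metabolic genes 55 and 42 (7.85%). In the limma fit 5.88% of all genes were called higher and 5.04% lower in SkMel28. Secreted genes gave 68 higher and 20 lower in MeWo and 75 and 13 in SkMel28, with a median change of 0.28 in each line. Membrane genes gave 156 and 86 in MeWo and 139 and 64 in SkMel28. Nuclear genes gave 85 higher and 73 lower and metabolic genes 46 and 96 in SkMel28. There 32 of the 80 matrix genes rose and 0 fell, and of 132 respiratory chain genes 0 rose and 12 fell. At an unadjusted p under 0.05, 1 matrix gene was lower and 3 respiratory chain genes were higher there, and edgeR and DESeq2 called 0 of either. The class of sugar chain enzymes, with 204 listed genes, had 15 higher and 13 lower there, against 36 and 14 in MeWo. This class held 17 genes with a more positive and 8 with a more negative change in MeWo.

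**Figure D5:**
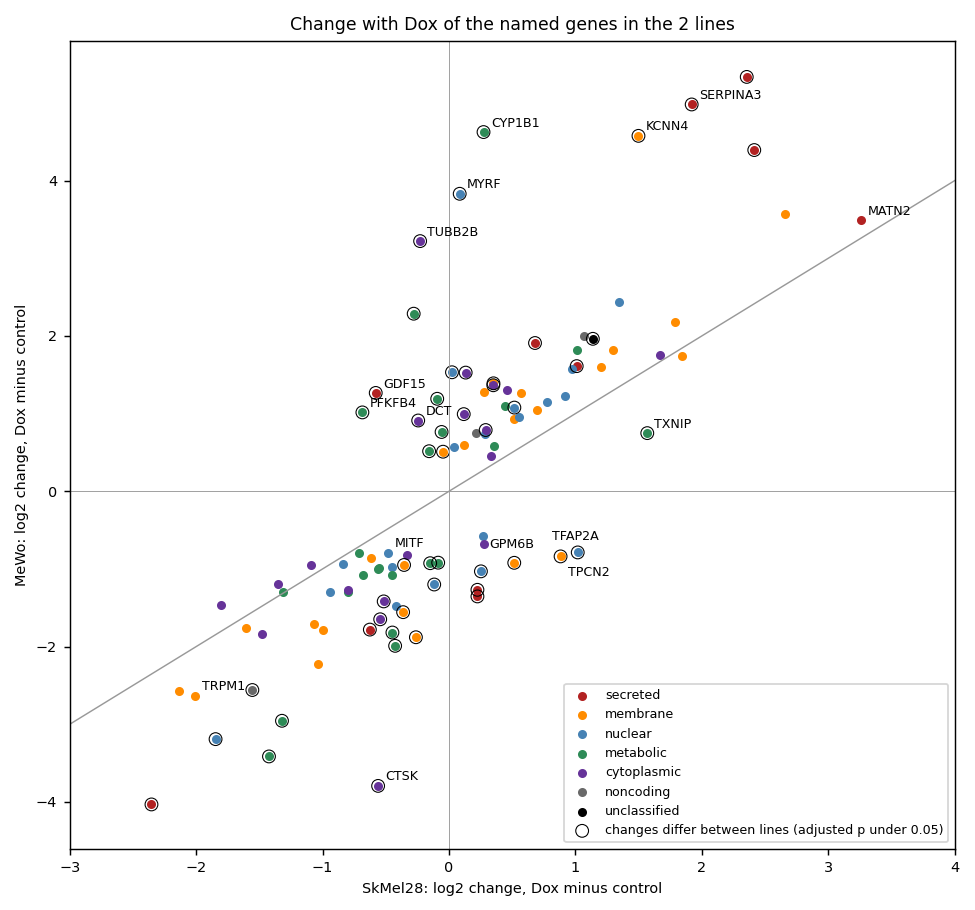
Log2 change with Dox of 102 named genes in MeWo (vertical axis) against SkMel28 (horizontal axis), coloured by group. The diagonal marks equal changes and rings mark the 49 genes whose changes differed between the lines. TFAP2A, TPCN2 and GPM6B fell in MeWo (-0.79, -0.84 and -0.92) and rose in SkMel28 (1.02, 0.88 and 0.52).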

How the data were processed

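RNA of MeWo and SkMel28 cells was sequenced from 3′ ends (QuantSeq Forward, total RNA), with 12 libraries in 4 groups of 3 given by the labels. The deposited values are a normalised signal: the authors scaled gene reads with edgeR to effective library sizes. The submitters' processing notes name FastQC 0.11.7, cutadapt 2.8, STAR 2.5.1b, edgeR and hg38. The counting tool, annotation and strand are not given in the sources used here. All values (100%) were whole multiples of 1 read within a tolerance of 0.1 reads, which gave library totals. These are 3′ reads without molecular identifiers, so floors (3 reads) cover counting error only.

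The 12616 genes were fitted as log2(value + 1) with limma 3.58.1 (lmFit, eBayes with trend, R 4.3.3) over 12 libraries and 4 group means, although the study used edgeR, since the values are normalised. Contrasts were Dox minus control in MeWo and in SkMel28, and their difference. Tests were two-sided with Benjamini-Hochberg adjustment over the genes of each contrast. The script was tested on simulated data. Recovered reads were also tested with edgeR 4.0.16, which called 1141 genes higher and 904 lower, and DESeq2 1.42.0. Upper-quartile, quantile and spike-in scaling, pseudocounts of 0.1 and 5, a filter, no trend, MeWo alone, a replicate block and leaving out each library were the other alternatives.

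Classes are symbol patterns. In 18 symbols a gene name had been turned into a date and stayed unclassified. Named were MITF, 8 lineage markers, and per class of at least 10 genes the called genes with the largest rise and fall and the most abundant called gene in each direction. Eligible for these (503 genes) were genes whose higher group averaged 10 or more, with no overlap, and the same call without each library, in MeWo alone, with edgeR, DESeq2, upper-quartile and spike-in scaling. This gave 105 genes, of which 3 are not reported here. Members, classes and lists were chosen with earlier results of these data known. Symbols were matched to GENCODE release 44 and RefSeq synonyms (12337 of 12616), and 32 of the 105 named genes overlap another listed gene.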

Additional observations from a re-analysis of the deposited data

Results flagged for a closer look

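The change with Dox in MeWo differed from that in SkMel28 for 50 of the 105 named genes, by the test of the difference itself in the limma fit (adjusted p under 0.05), against 894 of all 12616 genes (7.09%). Most named genes were chosen for their change or level in MeWo, which is 1 arm of this difference, so the choice favoured a high share. Values below are the change in MeWo minus the change in SkMel28 on the log2 scale. For 18 of the 50 the difference was called under every alternative of the fit that includes both lines.

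In 5 of these genes the changes were called in opposite directions. TFAP2A fell in MeWo, from 673, 664 and 709.9 to 485, 332 and 381, and rose in SkMel28, from a mean of 149 to 302 (difference -1.81, adjusted p = 1.09e-05). TPCN2 fell in MeWo and rose in SkMel28 from 15.6 to 29.5 (difference -1.72, adjusted p = 1.66e-05). GPM6B did likewise, with SkMel28 means of 239 and 343 (difference -1.44, adjusted p = 0.000141). GDF15 rose in MeWo and fell in SkMel28, from 395 to 263 (difference 1.85, adjusted p = 6.95e-05). PFKFB4 rose in MeWo and fell in SkMel28, from 29.8 to 18.3 (difference 1.70, adjusted p = 0.00152). All 5 differences were called under every alternative. This holds for the difference, whereas the calls in SkMel28 itself are given for the limma fit only. Their adjusted p there was 2.66e-05 for TFAP2A, 0.000107 for TPCN2, 0.0113 for GPM6B, 0.0172 for GDF15 and 0.0320 for PFKFB4. The last 3 are nearer the threshold.

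A further 13 differences were called under every alternative. More positive in MeWo were DCT (1.15), S100B (0.82), SERPINA3 (3.06), KCNN4 (3.08), MYRF (3.75), PTGES (2.57), PIGT (1.28), TUBB2B (3.45) and CTSC (1.01). MYRF was near the floor in both SkMel28 groups, and TUBB2B was low there (means of 4.35 and 3.43). More negative in MeWo were ESRP1 (-1.28), CKB (-1.37), CYB561A3 (-1.56) and CTSK (-3.23).

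The other 32 differences, of which 31 are given here, lost their call under 1 to 15 of the alternatives. More positive in MeWo were THBS2 (1.23), SEMA3B (1.98), TIMP3 (0.60), TCN1 (2.98), LRPAP1 (0.56), SYNGR2 (1.04), SALL1 (1.51), PCBP4 (0.56), FADS1 (0.82), SAT1 (0.67), CYP1B1 (4.35), WARS (0.88), FKBP10 (1.40) and HSPA5 (0.50). CYP1B1 was near the floor in both SkMel28 groups. More negative in MeWo were MLANA (-1.1), TYRP1 (-0.90), LUM (-1.15), ANGPTL2 (-1.58), MMP2 (-1.49), PNLIPRP3 (-1.68), MEGF6 (-1.62), SIRPA (-0.59), TMEM138 (-1.19), PRDM7 (-1.34), IRX3 (-1.08), SMS (-0.78), NMRK2 (-1.99), HAS2 (-1.63), GCNT2 (-0.83), TXNIP (-0.82) and LINC00520 (-1.0). ANGPTL2 and MMP2 were near the floor in both SkMel28 groups, THBS2 (means of 1.34 and 2.69) and NMRK2 (1.98 and 0.111) were low there on a scale that understates such changes, and TXNIP rose in both lines. Where the media differed as the labels state, the line and its medium change together and their parts in these differences cannot be told apart.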

How the results depend on the processing

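Of 2415 values of the 105 named genes under 23 alternatives, 2379 kept their direction and their side of the threshold, 36 lost their call and 0 reversed. Most of these alternatives were also part of the rule for naming, so for genes named by that rule the agreement was set in advance there. It does not measure how stable the calls of other genes are. TYR and SOX10, lineage markers that did not meet the rule, account for most losses, and ANGPTL2, MMP2 and RAB7B lost theirs with a pseudocount of 0.1. MITF was called under all 23, between -0.90 and -0.72 when single libraries were left out. Its weakest change was -0.52, with scaling to the spike-ins, where the call was near the threshold (limma, adjusted p = 0.0407).

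Counts were less stable. With the MeWo libraries alone 813 genes were called (414 higher, 399 lower, 496 at 2-fold). The groups then gave 12 lower secreted genes, 74 higher and 48 lower membrane genes, 35 higher and 33 lower nuclear genes, and 36 higher and 44 lower metabolic genes. Scaling to the spike-ins gave 2097 higher and 383 lower genes, 49 lower membrane genes, 324 higher and 26 lower nuclear genes, 196 higher and 34 lower metabolic genes, and 1519 differences between the lines. A pseudocount of 5 left 391 genes at 2-fold. Without a mean-variance trend 554 differences between the lines were called, and DESeq2 called 70 nuclear genes lower. The fit of MeWo alone has fewer libraries and its own estimate of the spread. The cause of these shifts was not tested.

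Leaving out each of the 12 libraries in turn gave 1281 to 3913 called genes, 671 to 2022 higher, 601 to 1891 lower, 671 to 1318 at 2-fold and 449 to 3115 differences between the lines. The ranges were 59 to 78 secreted genes higher and 14 to 23 lower, 108 to 215 membrane genes higher and 66 to 135 lower, 70 to 316 nuclear genes higher and 49 to 255 lower, and 59 to 189 metabolic genes higher and 72 to 236 lower. The upper ends came without MeWo Dox replicate 1. MeWo control replicates 2 and 3 and Dox replicate 3 each moved the count of called genes by over 1.5 times (1281, 1320 and 1301 without them).

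The labels do not say whether equal replicate numbers mark paired libraries. Deviations from the group means correlated at -0.18, -0.035 and 0.042 between the same-numbered MeWo libraries. In SkMel28 the values were -0.046, 0.045 and 0.159. With 3 libraries per group such values cannot show whether libraries were paired. A replicate block within each line gave 936 genes higher and 885 lower. With 2645727 to 3714608 reads per MeWo library, genes with a few reads are resolved only for large changes.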

Other observations

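Some gene sets cut across the classes. They were written after the values had been seen, were not tested as sets, and support nothing on their own. The counts of each set stand beside shares over all genes of 8.58% called higher and 8.12% called lower in MeWo. Of 17 genes for collagen folding and modification, 16 were listed, 8 rose, 1 fell and 7 were not called, with a median change of 0.67. SERPINH1, the collagen chaperone HSP47, was at 112, 88.2 and 92.3 in control and 273, 412 and 515 in Dox libraries (log2 change 1.99, SE 0.19, adjusted p = 9.71e-07). P4HA2, a prolyl hydroxylase, rose from 46.6, 50.5 and 43.4 to 108, 105 and 123 (log2 change 1.24, SE 0.13, adjusted p = 4.18e-06). PLOD1, a lysyl hydroxylase, rose from 144, 113 and 135 to 195, 351 and 317 (log2 change 1.1, SE 0.17, adjusted p = 0.000201). CRTAP, a partner of prolyl 3-hydroxylase, fell from 757, 739 and 706 to 622, 354 and 360.0 (log2 change -0.77, SE 0.16, adjusted p = 0.00295), a call that is lost in 2 of 23 alternatives. Of 23 basement membrane genes, 16 were listed, 8 rose and 0 fell in the limma fit, where edgeR, DESeq2 and an unadjusted p under 0.05 also gave 0 lower. LAMA4, a laminin chain, rose from 35.1, 24.1 and 38.2 to 136, 171 and 158 (log2 change 2.24, SE 0.15, adjusted p = 2.44e-08), and COL18A1, a basement membrane collagen, from 32.5, 32.2 and 27.9 to 88.4, 134 and 130.1 (log2 change 1.87, SE 0.20, adjusted p = 4.24e-06).

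Of 14 genes of Schwann cells and myelin, 13 were listed, 7 rose and 3 fell. ERBB3, the neuregulin receptor, rose from 107, 99.1 and 109 to 302, 357 and 360.0 (log2 change 1.68, adjusted p = 2.86e-08), NGFR, the low-affinity neurotrophin receptor, from 11.5, 12.4 and 9.39 to 67, 73.1 and 73.5 (log2 change 2.58, adjusted p = 4.77e-06), and CDH19, a Schwann cell cadherin, from 7.77, 8.55 and 9.39 to 47.6, 38.3 and 41.3 (log2 change 2.18, adjusted p = 2.81e-05). PMP22, a myelin protein, fell from 362, 355 and 331 to 311, 175 and 161 (log2 change -0.76, adjusted p = 0.0107), with Dox replicate 1 nearest the controls, and its call is lost in 3 of 23 alternatives. SOX10 and L1CAM were the other falls. Of 23 amino acid transporters of the SLC7, SLC3, SLC1 and SLC38 families, 17 were listed, 0 rose and 6 fell in the limma fit, and edgeR, DESeq2 and an unadjusted p under 0.05 gave 0 higher. SLC7A1, which takes up arginine and lysine, fell from 249, 263 and 244 to 129, 107 and 106 (log2 change -1.14, adjusted p = 7.49e-06), and SLC3A2, the heavy chain of the large neutral amino acid transporter, from 207, 215 and 211 to 149, 111 and 103 (log2 change -0.81, adjusted p = 0.000275).

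Of 11 HLA class II genes, all listed, 4 rose and 0 fell in the limma fit, from values near the floor, and edgeR, DESeq2 and an unadjusted p under 0.05 gave 0 lower. CD74, the invariant chain, was at 0, 0.389 and 0 in control and 6.06, 4.17 and 3.73 in Dox libraries (log2 change 2.32, adjusted p = 4.24e-06). In SkMel28 8 of them rose, where 5.88% of all genes were called higher. Of 12 oligosaccharyltransferase subunits, which attach sugar chains to new proteins, 3 rose (RPN1, RPN2 and DDOST) and 1 fell (OST4, a call that is lost in 6 of 23 alternatives, scaling to the spike-ins among them). Of 13 symbols for coenzyme Q synthesis, 11 were listed and 3 fell. COQ6 was at 27.6, 33.8 and 29.5 in control and 21.4, 5.31 and 6.77 in Dox libraries (log2 change -1.60, adjusted p = 0.00559), another gene whose Dox replicate 1 lies nearer the controls.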
